A study of Mus musculus with 16 samples.

Results

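The cathepsins and cystatins described here are 10 genes, picked by symbol out of 54532 entries in a table of read counts from mouse brain. They comprise 8 cathepsins (Ctss, Ctsd, Ctsb, Ctsz, Ctsh, Ctsl, Ctsc and Ctsa) and 2 cystatins (Cst3 and Cstb), and all 10 passed the filter on low counts. RNA came from female mice aged 9 months, as 16 libraries in 4 groups of 4. Ch25h+/+ animals without the tau transgene (Ch25h+/+ Tau-) and with it (Ch25h+/+ Tau+) made up the first pair of groups. Ch25h-/- animals without it (Ch25h-/- Tau-) and with it (Ch25h-/- Tau+) made up the other pair. Ch25h encodes the enzyme that makes 25-hydroxycholesterol, -/- marks loss of both copies, and Tau+ is taken to mean a tau transgene. The transgene, its promoter and its site in the genome are not named in the labels. The tissue is given as frontal cortex in the labels and as hippocampus in the series text. The summed level of 6 cortex markers (629 to 851 CPM, counts scaled to a common library size) was above that of 7 hippocampus markers (156 to 329.6 CPM) in every library. Nothing in the labels says that the libraries of a group came from separate animals, so p-values measure only the spread between these samples.

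Cathepsins are proteases of endosomes and lysosomes. Most are cysteine proteases of the papain family, whereas Ctsd is an aspartic protease and Ctsa a serine carboxypeptidase that also protects neuraminidase and beta-galactosidase. Cystatins bind cysteine cathepsins and block them, Cst3 (cystatin C) mainly outside the cell and Cstb (cystatin B) in the cytosol. In brain, Ctss is made mainly by microglia and cuts the invariant chain of class II antigen presentation, while Ctsb, Ctsd and Cst3 are made by many cell types.

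Totals were 15530352 to 25602500 counts per library, and the members were read with 96 to 24543 counts each. Ch25h was read at 0.370 ± 0.144 CPM (SD, n = 4) in Ch25h+/+ Tau- and 0.963 ± 0.319 CPM (SD, n = 4) in Ch25h+/+ Tau+, and had 0 counts in all 8 Ch25h-/- libraries. The ribosomal RNA transcript CT010467.1 separated the libraries in a way the labels do not name. It exceeded 1000 CPM in 7 of the 8 Ch25h-/- libraries, called rRNA-rich below, and lay at 111 to 475 CPM in the 8 Ch25h+/+ libraries and in Ch25h-/- Tau+ replicate 1. Ch25h loss and this class are therefore almost the same split, while the tau comparison in Ch25h+/+ lies wholly among rRNA-poor libraries.

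Promoter sequences were taken from RefSeq (GRCm38.p6), 250 bases before to 50 after the transcription start, and 7 of the 10 members matched. Of these, 3 windows are shown because Ctss, the member with the largest fitted differences for tau in Ch25h+/+, for Ch25h loss in Tau+ and for the interaction, held other letters than the windows shown for the lysosomal members Ctsd and Ctsa. Capitals mark matches on either strand to 3 motifs. The first is the core of the interferon-stimulated response element, GAAA and GAAA with any 2 bases between them. The others are GAGGAA, a core of sites for the myeloid factor PU.1, and CACGTG, the E-box core bound by TFEB and related factors of lysosomal genes. Each window is written 5′ to 3′ on the strand of its gene.
Ctss (chr3:95526536-95526835, + strand): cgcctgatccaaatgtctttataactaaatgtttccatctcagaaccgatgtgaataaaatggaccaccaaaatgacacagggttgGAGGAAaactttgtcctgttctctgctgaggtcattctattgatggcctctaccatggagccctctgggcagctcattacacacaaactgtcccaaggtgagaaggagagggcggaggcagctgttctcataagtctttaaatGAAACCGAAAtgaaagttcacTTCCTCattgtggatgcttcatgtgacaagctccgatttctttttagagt
Ctsd (chr7:142387778-142388077, - strand): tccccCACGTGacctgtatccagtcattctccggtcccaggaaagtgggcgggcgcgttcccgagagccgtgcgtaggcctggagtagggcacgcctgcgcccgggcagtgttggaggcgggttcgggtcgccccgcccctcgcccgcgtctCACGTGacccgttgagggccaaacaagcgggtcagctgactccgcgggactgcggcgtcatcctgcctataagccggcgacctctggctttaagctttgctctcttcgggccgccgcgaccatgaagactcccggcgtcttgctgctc
Ctsa (chr2:164833523-164833822, + strand, 1 of 2 listed starts): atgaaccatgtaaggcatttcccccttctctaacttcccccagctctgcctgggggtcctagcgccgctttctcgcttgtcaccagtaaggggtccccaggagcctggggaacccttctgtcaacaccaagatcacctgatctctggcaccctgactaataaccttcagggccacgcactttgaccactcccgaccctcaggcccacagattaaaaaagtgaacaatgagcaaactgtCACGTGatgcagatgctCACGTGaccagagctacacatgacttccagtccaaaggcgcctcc
The interferon-response core lay at -21 from the start of Ctss, in no other member window, and in 3.44% of 32851 promoter windows of this length. GAGGAA was found in Ctss (at -164 and at 1), Ctsc and Cst3, against 28.3% of all windows. CACGTG was found in Ctsd (at -245 and -98), Ctsa (1 of its 2 windows, at -12 and 6) and Ctsl (at -236), against 7.15% of all windows. A longer palindrome built around CACGTG was also searched for. It was found in 0 of the 8 member windows, against 0.326% of all windows. At so low a share, its absence from 8 windows cannot set the members apart from other genes. The other listed start of Ctsa (chr2:164832622-164832921), the one at the annotated start of the gene, held none of the 3 motifs. Motif positions count from the RefSeq start. For Ctsd, Ctsl, Cst3 and the Ctsa window shown, that start lies inside the gene as annotated in GENCODE M21. A match is a description of letters, and binding was not measured.

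The tau comparison in Ch25h+/+ asks how the members differ with tau where Ch25h is present. Ctss, Ctsd, Ctsz, Ctsh, Ctsl, Ctsc and Ctsa rose, and no member fell. These 7 of 10 compare with 1.56% of 17736 genes called in either direction and 1.47% called higher (edgeR quasi-likelihood test, Benjamini-Hochberg over all genes tested, threshold 0.05). Dropping Ch25h+/+ Tau+ replicate 4 lowered the share called in either direction to 0.892%, and dropping replicate 1 of Ch25h+/+ Tau- lowered it to 0.98%. In both fits 5 members passed, all of the 7 but Ctsc and Ctsa. The members' median log2 fold change was 0.62, against -0.00804 over all genes. For 8 members, all of them cathepsins, the 4 Tau+ libraries lay above the 4 Tau- libraries, as did 3.89% of all genes. In tissue RNA, more cells of a type and more RNA per cell cannot be told apart.

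**Figure D1:**
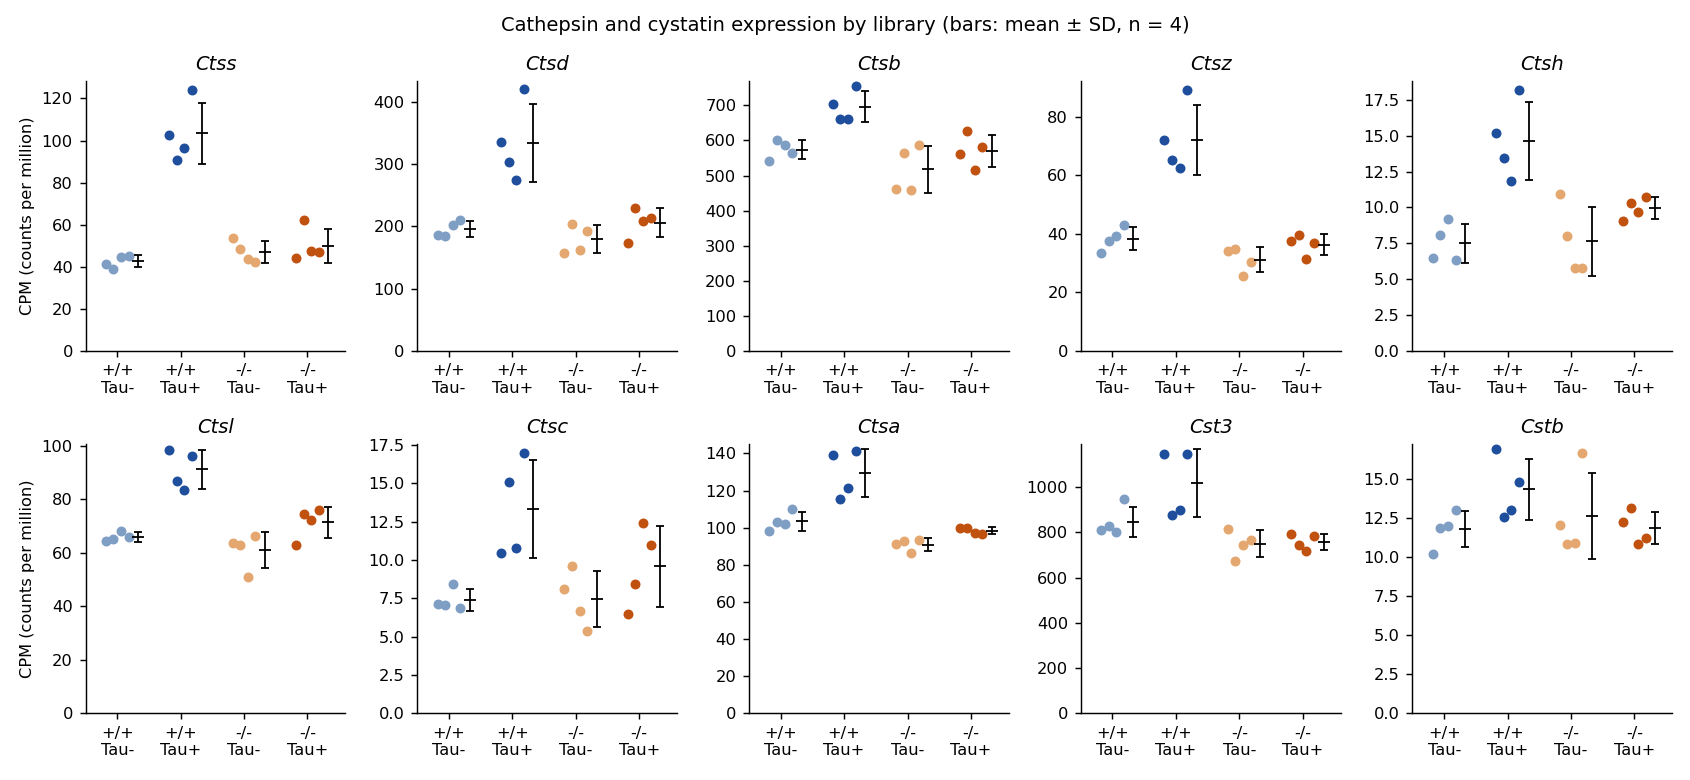
Expression of the 10 members in each of the 16 libraries, in CPM (TMM-scaled; each axis starts at 0). Points are libraries, bars are mean ± SD (n = 4). The Ch25h+/+ Tau+ libraries of Ctss sit at 90.7 to 124 CPM, above the 12 others at 39.1 to 62.0 CPM.

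Ctss (cathepsin S, chromosome 3, 95526786 to 95556403, GRCm38) was read at 41.4, 39.1, 44.5 and 45.1 CPM in the 4 Ch25h+/+ Tau- libraries and at 103, 90.7, 96.4 and 124 CPM in Ch25h+/+ Tau+. Every Tau+ library was higher than every Tau- library. The log2 fold change was 1.28 (standard error 0.11, a 2.43-fold rise), with an adjusted p of 4.10e-06 in the edgeR test. Ctsz (cathepsin Z, a carboxypeptidase, chromosome 2, 174427493 to 174439039) was at 33.5, 37.6, 39.1 and 43.0 CPM in Tau- and 71.9, 65.2, 62.4 and 89.0 CPM in Tau+. The groups did not overlap (log2 fold change 0.91, standard error 0.12, edgeR adjusted p 0.000253). Ctsd (cathepsin D, chromosome 7, 142375911 to 142388038) was at 186, 184, 203 and 211 CPM in Tau- and 336, 304, 275 and 421 CPM in Tau+, again without overlap (log2 fold change 0.77, standard error 0.12, edgeR adjusted p 0.00136). For these 3 genes Ch25h+/+ Tau+ replicate 4 was the highest library.

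The less abundant Ctsh and Ctsc, both aminopeptidases (Ctsc activates the serine proteases of leukocyte granules), rose with a wider spread. Ctsh (chromosome 9, 90054152 to 90076089) was at 6.47, 8.04, 9.19 and 6.35 CPM in Tau- and 15.2, 13.5, 11.8 and 18.2 CPM in Tau+ (log2 fold change 0.96, standard error 0.19, edgeR adjusted p 0.00856). Ctsc (chromosome 7, 88278085 to 88310888) was at 7.16, 7.06, 8.41 and 6.90 CPM in Tau- and 10.5, 15.1, 10.8 and 17.0 CPM in Tau+. Neither gene overlapped between the groups. The Ctsc log2 fold change (0.85, standard error 0.21, edgeR adjusted p 0.0435) lay just inside the threshold. With each library left out in turn it ran over 0.72 to 0.96, and 8 of those 16 fits lost the call. They were the fits without Ch25h+/+ Tau+ replicate 2 or 4, any Ch25h+/+ Tau- library, Ch25h-/- Tau+ replicate 2 or Ch25h-/- Tau- replicate 3. Ctsc also lost it where genes had to average 50 counts.

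Ctsl and Ctsa rose less. Ctsl (cathepsin L, chromosome 13, 64359337 to 64370890) was at 64.2, 65.3, 68.3 and 65.7 CPM in Tau- and 98.3, 86.8, 83.3 and 96.1 CPM in Tau+ (log2 fold change 0.47, standard error 0.085, edgeR adjusted p 0.00471). Ctsa (chromosome 2, 164832873 to 164841032) was at 98.2, 103, 102 and 110.2 CPM in Tau- and 139, 116, 121 and 142 CPM in Tau+ (log2 fold change 0.32, standard error 0.069, edgeR adjusted p 0.0176). Both genes were without overlap. Ctsa no longer passed when Ch25h+/+ Tau+ replicate 4 or any 1 of Ch25h+/+ Tau- replicates 1, 2 and 3 was dropped (log2 fold change 0.28 to 0.39 over all 16 such fits), or when the other 8 libraries were set aside.

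Ctsb (cathepsin B, chromosome 14, 63122462 to 63145923), the cathepsin with the most counts, did not pass. It was at 541, 603, 587 and 564 CPM in Tau- and 705, 662, 661 and 754 CPM in Tau+, without overlap (log2 fold change 0.28, standard error 0.089, edgeR adjusted p 0.185). The cystatins did not pass either. Cst3 (chromosome 2, 148871722 to 148875692) was at 812, 829.7, 801 and 945 CPM in Tau- and 1146, 877, 899 and 1146 CPM in Tau+, with overlap (log2 fold change 0.26, standard error 0.096, edgeR adjusted p 0.303). Cstb (chromosome 10, 78425669 to 78427622) was at 10.2 to 12.998 CPM in Tau- and 12.6 to 16.9 CPM in Tau+ (log2 fold change 0.28, standard error 0.14, edgeR adjusted p 0.562).

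The second tau comparison was made among the Ch25h-/- libraries. None of the 10 members passed in edgeR, DESeq2 or limma-voom, which called 0.0395%, 0.079% and 0.0338% of all genes. The edgeR share was 0.072% without Ch25h-/- Tau- replicate 4. An unadjusted p under 0.05 was reached by 1 member (Ctsl) and by 3.68% of all genes in edgeR. The fitted log2 fold changes ran from -0.091 (Cstb) to 0.38 (Ctsh), with a median of 0.17 against 0.00798 over all genes.

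Ctss was at 53.5, 48.5, 43.6 and 42.0 CPM in Ch25h-/- Tau- and 44.1, 62.0, 47.3 and 46.8 CPM in Ch25h-/- Tau+ (log2 fold change 0.092, standard error 0.11, edgeR adjusted p 0.99998). The groups overlapped, and the highest value came from Ch25h-/- Tau+ replicate 2. Ctsd was at 158, 203, 162 and 193 CPM in Tau- and 173, 229, 208 and 213 CPM in Tau+ (log2 fold change 0.20, standard error 0.12), again with overlap. Ctsl was at 63.5, 62.8, 51.0 and 66.2 CPM in Tau- and 62.8, 74.4, 72.2 and 75.9 CPM in Tau+, with an unadjusted p of 0.0160 in the edgeR test. Only Ctsa was without overlap, at 86.2 to 93.3 CPM in Tau- and 96.6 to 99.998 CPM in Tau+, where 1.14% of all genes lay higher without overlap (log2 fold change 0.11, standard error 0.0698, edgeR adjusted p 0.99998). When Ch25h-/- Tau+ replicate 1 was dropped, which leaves this comparison with rRNA-rich libraries only, the Ctss log2 fold change was 0.14 and again no member passed.

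**Figure D2:**
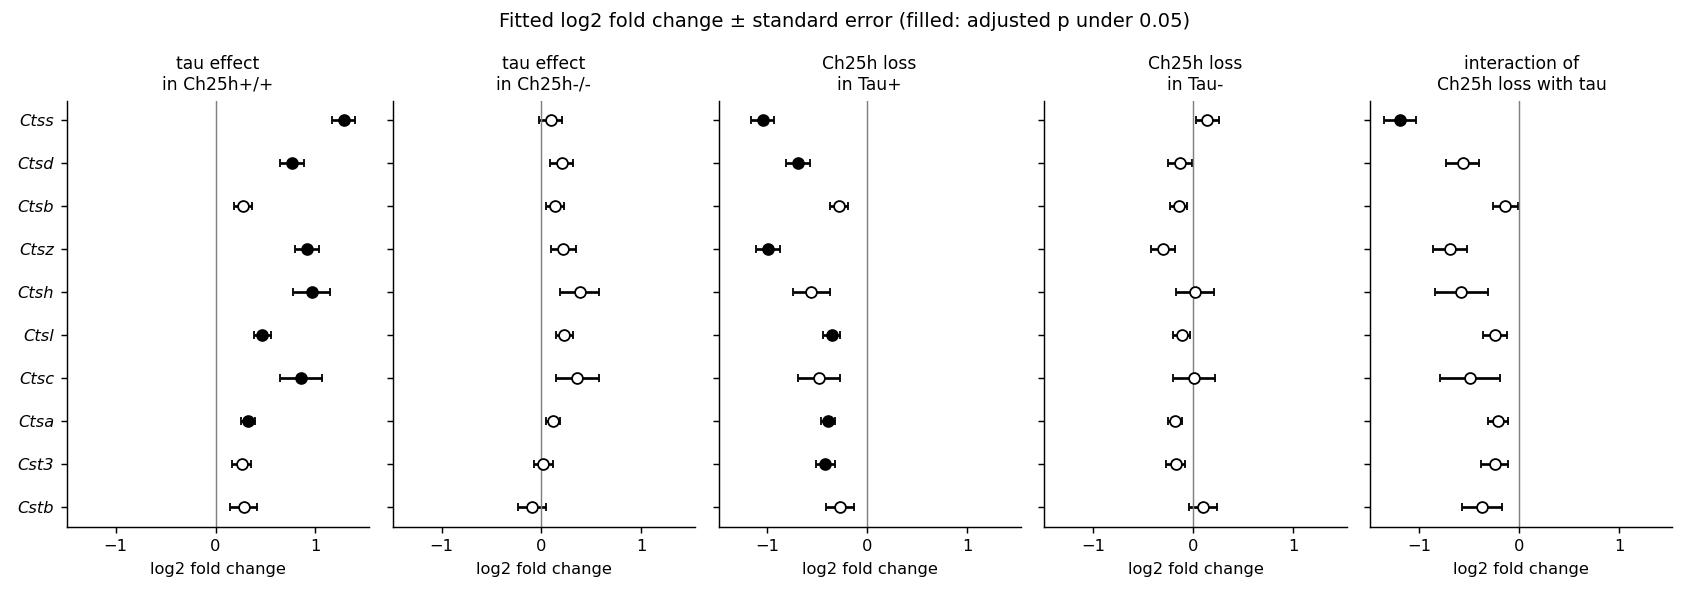
Fitted log2 fold change (x axis) with its standard error for the 10 members (rows) in the 5 comparisons; filled points have an edgeR adjusted p under 0.05. The filled points number 7 for tau in Ch25h+/+, 6 for Ch25h loss in Tau+ and 1 for the interaction, and there are none for tau in Ch25h-/- or Ch25h loss in Tau-.

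The interaction tests the difference of the tau effect between Ch25h-/- and Ch25h+/+. It passed for 1 of the 10 members, Ctss, against 0.0338% of all genes. The Ctss interaction was -1.19 on the log2 scale (standard error 0.16, edgeR adjusted p 0.0131), the difference between 0.092 in Ch25h-/- and 1.28 in Ch25h+/+. Leaving out each library in turn gave -1.32 to -1.10. The adjusted p missed the threshold without Ch25h-/- Tau+ replicate 3 (0.0589) and without replicate 4 of that group (0.0566), where the log2 value was -1.18 and -1.17. The share of all genes called ran from 0% in the fits without either of these to 0.122% without Ch25h+/+ Tau+ replicate 1, and it also moved by over 1.5 times without Ch25h+/+ Tau+ replicate 2, any Ch25h+/+ Tau- library, Ch25h-/- Tau+ replicate 2 or Ch25h-/- Tau- replicate 1. Over all 16 such fits the edgeR adjusted p was 0.00164 to 0.0589.

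Ctsz followed at -0.69 (standard error 0.17, edgeR adjusted p 0.219) and Ctsd at -0.57 (standard error 0.17, edgeR adjusted p 0.455). Ctsz passed beside Ctss with DESeq2 (adjusted p 0.0428, 0.31% of all genes called) and with no filter on low counts (edgeR adjusted p 0.0382, 0.168% of genes called). All 10 fitted interactions were below 0 (-1.19 to -0.14, median -0.43 against 0.015 over all genes), while 53.7% of all genes lay above 0. An unadjusted p under 0.05 was reached by 5 members and 4.13% of all genes.

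Ch25h loss in Tau+ asks how the members differ between Ch25h-/- and Ch25h+/+ where tau is present. Ctss, Ctsz, Ctsd, Ctsa, Ctsl and Cst3 fell, 6 of 10, against 3.55% of all genes called and 2.4% called lower. The share of all genes called moved with single libraries. It was 1.49% without Ch25h+/+ Tau+ replicate 1, 7.01% without replicate 2 and 0.602% without replicate 4 of that group. Without Ch25h-/- Tau+ replicates 1 to 4, each in turn, it was 9.42%, 1.21%, 0.65% and 0.838%, while 4 to 6 members passed over all 16 such fits. The median log2 fold change was -0.45, against 0.0044 over all genes. For 8 members the Ch25h-/- libraries lay below all Ch25h+/+ libraries, as for 5.74% of all genes. This comparison shares the Ch25h+/+ Tau+ libraries with the tau comparison in Ch25h+/+, so the 2 are not independent of each other.

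Ctss had a log2 fold change of -1.05 (standard error 0.11, edgeR adjusted p 8.70e-05), from 103 ± 14.6 CPM (SD, n = 4) in Ch25h+/+ Tau+ to 50.048 ± 8.08 CPM (SD, n = 4) in Ch25h-/- Tau+. Ctsz was at 37.5, 39.5, 31.3 and 36.7 CPM in Ch25h-/- Tau+, below all Ch25h+/+ Tau+ libraries (log2 fold change -0.99, standard error 0.12, edgeR adjusted p 0.000253). The Ctsd log2 fold change was -0.70 (standard error 0.12, edgeR adjusted p 0.00443). Ctsa, at 99.998, 99.996, 96.9 and 96.6 CPM in Ch25h-/- Tau+, was lower in each of these libraries than in any Ch25h+/+ Tau+ library (log2 fold change -0.40, standard error 0.069, edgeR adjusted p 0.00556).

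Cst3, the most abundant member by counts, was at 791, 743, 716 and 785 CPM in Ch25h-/- Tau+, all below the lowest Ch25h+/+ Tau+ library at 877 CPM (log2 fold change -0.42, standard error 0.096, edgeR adjusted p 0.0275). Ctsl was at 62.8 to 75.9 CPM, also without overlap (log2 fold change -0.35, standard error 0.085, edgeR adjusted p 0.0326). Ctsb (-0.29), Ctsh (-0.56), Ctsc (-0.48) and Cstb (-0.27) did not pass (edgeR adjusted p 0.0745 to 0.246). DESeq2 and limma-voom passed Ctsb and Ctsh as well, 8 members each, where they called 7.88% and 10.6% of all genes.

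With the rRNA class as a covariate only Ctss passed (log2 fold change -1.23, edgeR adjusted p 0.0293), against 0.0564% of all genes. In that fit Ctsd was -0.95, Ctsz -0.94, Ctsl -0.54, Ctsa -0.37 and Cst3 -0.36 without passing. The covariate leaves this comparison resting on 1 Ch25h-/- Tau+ library, replicate 1. That rRNA-poor library lay below all 4 Ch25h+/+ Tau+ libraries, which are also rRNA-poor, for 10 of 10 members, as it did for 17.5% of all genes. Its level was 44.1 CPM for Ctss, 173 CPM for Ctsd and 791 CPM for Cst3.

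In a fit of these 8 libraries alone, 3 members passed (Ctss, Ctsd and Ctsz), against 0.625% of genes. The Ctsl and Cst3 calls were each lost when Ch25h+/+ Tau+ replicate 1 or 4 or Ch25h-/- Tau+ replicate 2, 3 or 4 was left out. With each library left out in turn the log2 fold change of Ctsl was -0.40 to -0.31 and that of Cst3 -0.51 to -0.37. Cst3, with a GC content of 57.2%, also lost its call with GC-corrected offsets (-0.27, edgeR adjusted p 0.132).

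Ch25h loss in Tau- passed for 0 of 10 members in edgeR, DESeq2 and limma-voom, which called 1.03%, 5.45% and 7.83% of all genes. The edgeR share ran from 0.0167% without Ch25h+/+ Tau- replicate 1 to 7.25% without Ch25h+/+ Tau+ replicate 1. It moved by over 1.5 times without any 1 library other than Ch25h+/+ Tau+ replicate 3 and Ch25h-/- Tau- replicate 4, and 0 members passed in each of those fits. An unadjusted p under 0.05 was reached by 2 members and by 20.9% of all genes in edgeR. The members were Ctsa (-0.19, standard error 0.0696, edgeR adjusted p 0.143) and Ctsz (-0.30, standard error 0.12, edgeR adjusted p 0.168). Ctsa was the only member without overlap, at 98.2 to 110.2 CPM in Ch25h+/+ and 86.2 to 93.3 CPM in Ch25h-/-, where 8.58% of all genes were lower without overlap. Ctss had a fitted log2 fold change of 0.14 (standard error 0.11) and did not pass. With the rRNA class as a covariate the Ctss value was -0.097. In Tau- all Ch25h-/- libraries are rRNA-rich and all Ch25h+/+ libraries rRNA-poor. The class effect in that fit therefore comes from 1 library of another group, Ch25h-/- Tau+ replicate 1.

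In order of the group means, Ctss ran from 42.5 ± 2.81 CPM in Ch25h+/+ Tau- through 46.9 ± 5.22 in Ch25h-/- Tau- and 50.048 ± 8.08 in Ch25h-/- Tau+ to 103 ± 14.6 in Ch25h+/+ Tau+ (SD, n = 4). The 3 lower groups overlapped one another, and only Ch25h+/+ Tau+ stood apart. Ctsz had its lowest mean in Ch25h-/- Tau- (31.1 ± 4.22 CPM), followed by Ch25h-/- Tau+ (36.2 ± 3.50), Ch25h+/+ Tau- (38.3 ± 3.92) and Ch25h+/+ Tau+ (72.1 ± 11.9). For Ctsd the order was Ch25h-/- Tau- (179 ± 22.5 CPM), Ch25h+/+ Tau- (196 ± 13.1), Ch25h-/- Tau+ (206 ± 23.6) and Ch25h+/+ Tau+ (334 ± 62.8). In both genes the 3 lower groups overlapped.

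Microglia, a main source of Ctss, were read by their markers. The summed level of 14 microglia markers was 383 to 422 CPM in Ch25h+/+ Tau- libraries and 474 to 596 CPM in those of Ch25h+/+ Tau+. Without Ch25h it was 365 to 421 CPM in Tau- and 381 to 452 CPM in Tau+, and no marker was at 0 throughout.

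Each member was also set against the marker sum of its own library. Relative to that sum, Ctss was 1.84-fold higher with tau in Ch25h+/+ (log2 ratio -3.22 ± 0.081 to -2.35 ± 0.13, SD, n = 4), Ctsh 1.48-fold, Ctsz 1.42-fold and Ctsc 1.35-fold, each without overlap of the libraries, as were 1.09% of all genes in the same direction. The ratios of Ctsd (1.28-fold), Ctsl (1.05-fold), Ctsb (0.921-fold), Ctsa (0.949-fold), Cst3 (0.907-fold) and Cstb (0.922-fold) overlapped between the groups. With Ch25h loss in Tau+, Ctss was at 0.610-fold and Ctsz at 0.639-fold of its ratio in Ch25h+/+, both without overlap, as were 147 of 17736 genes in the same direction (31.5% in either direction, most of them higher), and the other 8 members overlapped. In the comparisons within Ch25h-/- and within Tau- all 10 ratios overlapped, where 1.92% and 11.2% of all genes did not. These ratios are descriptions, and the part of cell number in the differences was not tested.

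Other cell types were read in the same way. The 7 markers of border-associated macrophages summed to 6.05 to 14.3 CPM in Ch25h+/+ Tau- and 12.7 to 21.7 CPM in Ch25h+/+ Tau+, and 1 of them (Ms4a7) rose. They summed to 8.49 to 15.1 CPM in Ch25h-/- Tau+, and Ms4a7 fell with Ch25h loss in Tau+. The part of these macrophages in the members' differences was not tested. The 7 monocyte and neutrophil markers summed to at most 2.99 CPM and the 6 T and natural killer cell markers to at most 1.17 CPM in any library. The 8 choroid plexus markers, from a tissue rich in Cst3, summed to 16.9 to 2808 CPM over the libraries. With their level as a covariate the same 7 members passed for tau in Ch25h+/+ and the same 6 for Ch25h loss in Tau+, where 1.66% and 2.75% of all genes were called. Of 7 astrocyte markers, 1 (Gfap) rose with tau in Ch25h+/+, and 2 (Gfap and Aldoc) fell with Ch25h loss in Tau+. The part of astrocytes in the Cst3 difference was not tested.

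**Figure D3:**
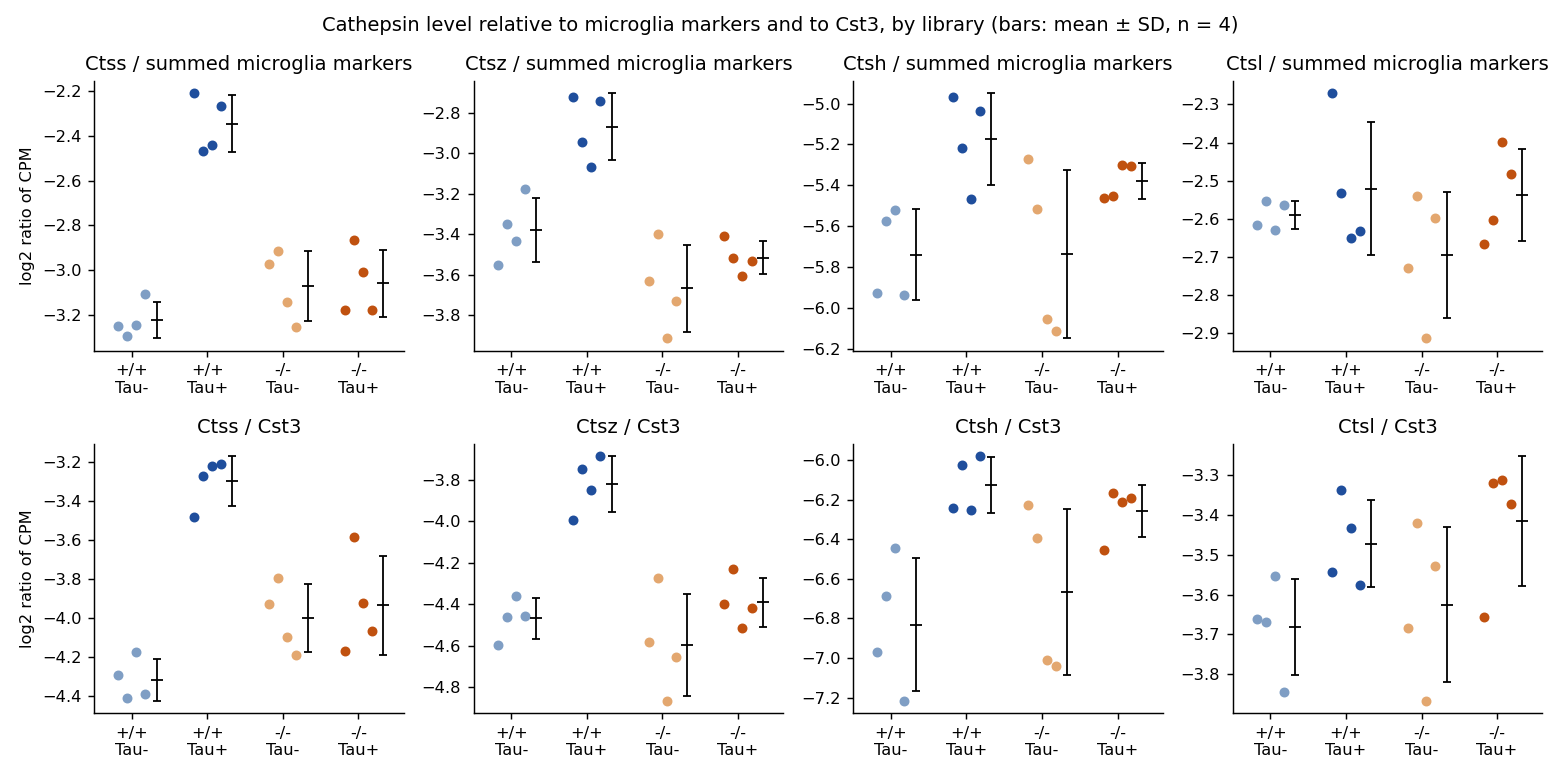
Log2 ratio of CPM of 4 cathepsins to the summed microglia markers (top) and to Cst3 (bottom) in each library; bars are mean ± SD (n = 4). The Ctss and Ctsz ratios of Ch25h+/+ Tau+ lie above the Ch25h+/+ Tau- libraries and above the Ch25h-/- Tau+ libraries in both rows, while those of Ctsl overlap.

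The cysteine proteases were also set against Cst3, the abundant secreted inhibitor. With tau in Ch25h+/+ the ratio to Cst3 was 2.03-fold higher for Ctss, 1.63-fold for Ctsh and 1.57-fold for Ctsz, without overlap, as for 1.36% of all genes in the same direction, while those of Ctsb (1.02-fold), Ctsl (1.16-fold) and Ctsc (1.48-fold) overlapped. In Ch25h-/- all 6 ratios overlapped, where 1.52% of all genes did not, with Ctss at 1.05-fold. With Ch25h loss in Tau+ the ratio was 0.642-fold for Ctss and 0.672-fold for Ctsz, without overlap, as for 0.558% of all genes in the same direction, and the other 4 overlapped.

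The other genes of the pathway were read by list, and their counts compare with 1.47% of all genes called higher for tau in Ch25h+/+ and 2.4% called lower for Ch25h loss in Tau+. Of 14 other cathepsins 3 had enough counts to be tested (Ctsk, Ctsf and Ctso), and none passed in edgeR in any comparison. With tau in Ch25h+/+ 2 of them had an unadjusted p under 0.05, as did 9.38% of all genes. Ctsk, a collagen-cutting cathepsin within 2 Mb of Ctss on chromosome 3, was at 2.42 to 3.97 CPM in Ch25h+/+ Tau- and 3.91 to 4.31 CPM in Ch25h+/+ Tau+ (log2 fold change 0.49, standard error 0.20, edgeR adjusted p 0.409). Of 20 other cystatins and related proteins on the list 18 had an entry and 2 had enough counts to be tested. Of these, Cst7 (cystatin F, an inhibitor inside immune cells whose targets include Ctsc) rose with tau in Ch25h+/+.

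Cst7 was at 0.277, 0, 0.0432 and 0.101 CPM in Ch25h+/+ Tau- and 6.04, 5.76, 4.97 and 8.50 CPM in Ch25h+/+ Tau+ (edgeR adjusted p 0.000874). In Ch25h-/- Tau+ it was at 0.430, 3.96, 0.284 and 0.125 CPM. Replicate 2, the library with the highest Ctss of that group, stood above the other 3. Cst7 fell with Ch25h loss in Tau+ (log2 fold change -2.46, edgeR adjusted p 0.0416). That call was lost with DESeq2 (-2.41, adjusted p 0.103), with GC-corrected offsets (-2.44), from the 8 libraries alone (-2.47) and when Ch25h+/+ Tau+ replicate 1 or 4 or Ch25h-/- Tau+ replicate 1, 3 or 4 was left out (-4.40 to -2.11 over all 16 such fits).

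**Figure D4:**
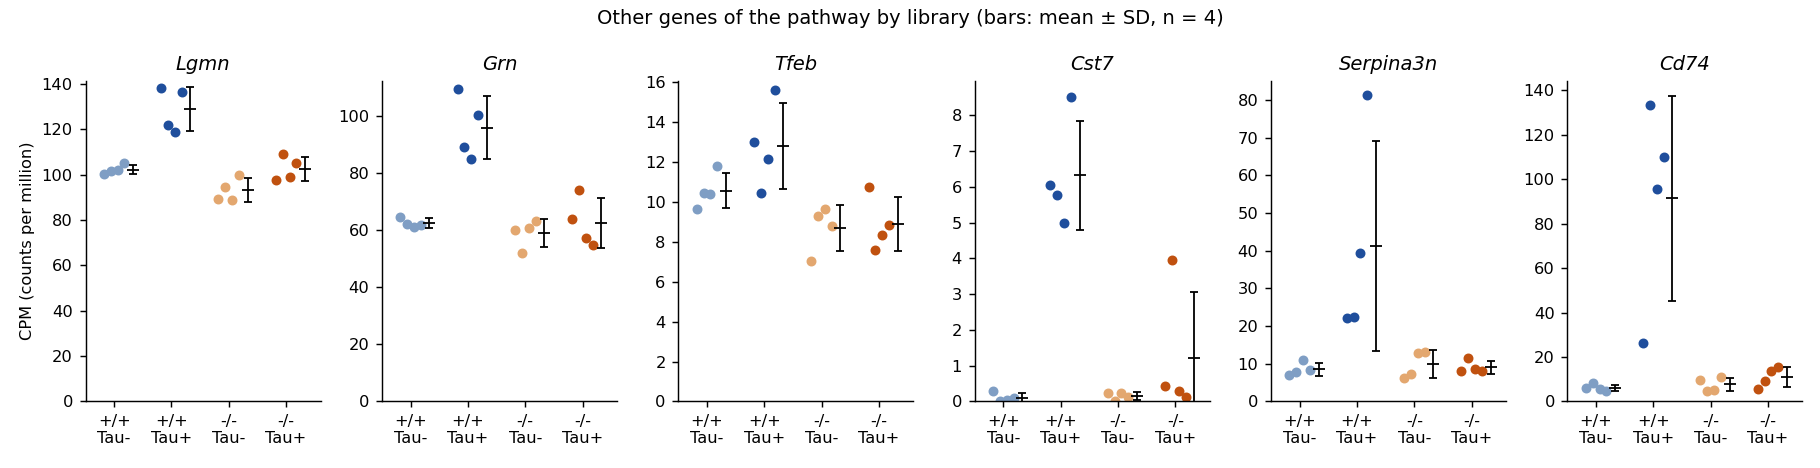
Expression of 6 other genes of the pathway in each library, in CPM; bars are mean ± SD (n = 4), cut at 0 where they would pass below it. Cst7 lies at 4.97 to 8.50 CPM in Ch25h+/+ Tau+ and at most 0.277 CPM in the Tau- libraries, and Grn at 84.8 to 109 CPM against 52.1 to 74.2 CPM in the other 3 groups.

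Of 8 other lysosomal peptidases 1 passed, Lgmn (legumain, which processes cathepsins). It rose from 102 ± 1.96 CPM in Ch25h+/+ Tau- to 129 ± 9.82 CPM in Ch25h+/+ Tau+ (SD, n = 4), a log2 fold change of 0.33 (standard error 0.067, edgeR adjusted p 0.0101). This call was lost without Ch25h+/+ Tau+ replicate 4 (0.31 to 0.37 over the 16 fits) and from the 8 libraries alone (0.34). With Ch25h loss in Tau+ Lgmn fell (-0.33, standard error 0.067, edgeR adjusted p 0.0145), a call lost without Ch25h+/+ Tau+ replicate 4 or Ch25h-/- Tau+ replicate 3 (-0.38 to -0.30 over the 16 fits) and from the 8 libraries alone (-0.33). Among 12 genes of sorting to the lysosome 1 passed, Grn (progranulin, a lysosomal glycoprotein cut by cathepsins). Grn levels were 62.5 ± 1.62 CPM in Ch25h+/+ Tau- and 96.0 ± 11.1 CPM in Ch25h+/+ Tau+ (SD, n = 4), and the log2 fold change was 0.62 (edgeR adjusted p 0.00138). It fell with Ch25h loss in Tau+ (-0.62, standard error 0.097, edgeR adjusted p 0.00205). The sorting receptors M6pr, Igf2r and Sort1 were among the 11 that did not pass.

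Of 4 transcription factors of lysosomal genes 3 were tested. Tfeb fell with Ch25h loss in Tau+ just inside the threshold (-0.52, standard error 0.14, edgeR adjusted p 0.0497). It lost this call in 13 of the 16 fits with 1 library left out (-0.65 to -0.42), all but those without Ch25h+/+ Tau+ replicate 2, Ch25h-/- Tau+ replicate 1 or Ch25h-/- Tau- replicate 1. It also lost it with GC-corrected offsets, with the choroid plexus covariate and from the 8 libraries alone. None of the 3 Ctsa partners (Neu1, Glb1 and Galns) passed in edgeR in any comparison, with 1 at an unadjusted p under 0.05 for tau in Ch25h+/+, against 9.38% of all genes. Of the 4 granule proteases that Ctsc activates 1 was tested, and it did not pass.

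Among 8 other inhibitors 7 were tested and 1 passed, Serpina3n, a serpin of reactive astrocytes. It was at 6.98 to 11.0 CPM in Ch25h+/+ Tau- and 22.1 to 81.3 CPM in Ch25h+/+ Tau+ (log2 fold change 2.27, standard error 0.35, edgeR adjusted p 0.00132), and at 7.94 to 11.6 CPM in Ch25h-/- Tau+. Of 7 genes of the class II pathway, whose invariant chain is a substrate of Ctss and Ctsl, 6 rose with tau in Ch25h+/+ and 5 (Cd74, H2-Aa, H2-Ab1, H2-Eb1 and H2-DMb1) fell with Ch25h loss in Tau+, where 1.47% of all genes were called higher and 2.4% lower. The sixth gene that rose, H2-DMa (log2 fold change 0.49, edgeR adjusted p 0.0241), lost its call without Ch25h+/+ Tau+ replicate 1 or Ch25h+/+ Tau- replicate 1 or 2 (0.43 to 0.57 over the 16 fits), with no filter and from the 8 libraries alone. H2-DMb1 (log2 fold change -1.09 with Ch25h loss in Tau+) lost that call without Ch25h+/+ Tau+ replicate 4 or Ch25h-/- Tau+ replicate 3 or 4 (-1.21 to -0.94), with GC-corrected offsets and from the 8 libraries alone. Cd74, the invariant chain, was at 4.53 to 8.10 CPM in Ch25h+/+ Tau- and 26.4 to 134 CPM in Ch25h+/+ Tau+. In Ch25h-/- Tau+ it was at 5.67 to 15.6 CPM. The interaction passed for Cd74 (-3.41, standard error 0.58, edgeR adjusted p 0.0405), 1 of the 7. In 13 of the 16 fits with 1 library left out it did not, all but those without Ch25h+/+ Tau+ replicate 1 or Ch25h-/- Tau- replicate 2 or 3. The Cd74 interaction call was also lost with the rRNA class as a covariate and with GC-corrected offsets. With the rRNA class as a covariate Lgmn, Grn, Cst7, Tfeb, Serpina3n and all 5 class II genes lost their calls for Ch25h loss in Tau+ (edgeR adjusted p 0.0606 for Cd74 to 0.976 for Tfeb), and all 10 log2 fold changes were still below 0. In that fit, which rests on Ch25h-/- Tau+ replicate 1, the log2 fold change was -4.01 for Cd74 (-3.08 without the covariate), -4.33 for H2-Aa (-3.16), -2.38 for Serpina3n (-2.19) and -0.58 for Grn (-0.62). Tfeb was at -0.25 against -0.52.

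Likeness of pattern was measured over the 16 libraries as the root mean square difference of log2(CPM + 0.5), after each gene was centred on its own mean. The members themselves were left out as candidates, so likeness of one member to another was not read. Genes with a mean log2(CPM + 0.5) under 1 were left out too. Nearest to Ctss among the 14471 genes kept were Cd68 (0.13), Itgb2 (0.18) and Mpeg1 (0.18), all genes of microglia and macrophages. The median gene differed from Ctss by 0.56. Nearest to Ctsd were Unc93b1 (0.13), Npc2 (0.15) and Laptm5 (0.15), against a median of 0.42, and nearest to Ctsz were Arpc1b (0.15), Spi1 (0.16) and Apoe (0.16), against 0.51. Ctsl lay nearest to Lgmn (0.089), Npc2 (0.10) and Tspan4 (0.10), against 0.30, and Ctsa to Cd81 (0.058), Lgmn (0.058) and Mapkapk2 (0.083), against 0.27. Cst3 lay nearest to Mif4gd (0.085), Mapkapk2 (0.092) and the astrocyte gene Aldoc (0.096), against 0.28. For Ctsh the nearest were Fbln5 (0.18), Cd9 (0.19) and Serping1 (0.20), against 0.48, and for Ctsc AI506816 (0.19), Tcn2 (0.22) and Mxra8 (0.22), against 0.47. These distances share library, depth and normalization.

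The neighbours of Ctss on chromosome 3 were read beside it. Of 103 other tested genes that start within 2 Mb, 2 rose with tau in Ch25h+/+ (Tmod4 and Fcgr1) and 1 fell (Scnm1), against 1.56% of all genes called, and their median log2 fold change was -0.026. Fcgr1, a myeloid Fc receptor, had a log2 fold change of 0.88 (standard error 0.21, edgeR adjusted p 0.0349), a call lost without Ch25h+/+ Tau+ replicate 2, 3 or 4 or Ch25h+/+ Tau- replicate 1, 3 or 4. Scnm1 lay just inside the threshold (log2 fold change -0.52, standard error 0.13, edgeR adjusted p 0.04996). It lost its call in 14 of the 16 fits with 1 library left out, all but those without Ch25h+/+ Tau+ replicate 1 or Ch25h-/- Tau- replicate 3. The call was also lost where genes had to average 50 counts, with the rRNA class as a covariate and from the 8 libraries alone. Tmod4, a tropomodulin (log2 fold change 1.96, standard error 0.37, edgeR adjusted p 0.00716), passed in every alternative run.

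With Ch25h loss in Tau+, where Ctss fell, 3 of these neighbours of Ctss fell (Cdc42se1, Hist2h3c2 and Fcgr1, the last with a log2 fold change of -0.93, standard error 0.21, edgeR adjusted p 0.0268), against 3.55% of all genes called. These 3 calls were each lost with the rRNA class as a covariate, from the 8 libraries alone and without Ch25h+/+ Tau+ replicate 4 or Ch25h-/- Tau+ replicate 3 or 4, and those of Cdc42se1 and Hist2h3c2 also with GC-corrected offsets and without Ch25h+/+ Tau+ replicate 1 or Ch25h-/- Tau+ replicate 2. With Ch25h loss in Tau- 2 rose, Tmod4 (log2 fold change 1.71, standard error 0.39, edgeR adjusted p 0.0476) and Hist2h4 (log2 fold change 1.40, standard error 0.30, edgeR adjusted p 0.0376), against 1.03% of all genes called. Both calls were lost with GC-corrected offsets, where 0.0902% of all genes were called. With the rRNA class as a covariate the log2 fold changes were 0.76 and 0.66. In Tau- every Ch25h-/- library is rRNA-rich and every Ch25h+/+ library rRNA-poor, so class and Ch25h loss cannot be told apart. That covariate takes its class effect from Ch25h-/- Tau+ replicate 1 alone, so the fit cannot decide whether the calls hold. Tmod4 lost it in 12 of the 16 fits with 1 library left out, all but those without Ch25h+/+ Tau+ replicate 1, Ch25h-/- Tau+ replicate 1 or 3 or Ch25h-/- Tau- replicate 4. Hist2h4 lost it in 11, all but those without Ch25h+/+ Tau+ replicate 1, 2 or 3, Ch25h-/- Tau+ replicate 1 or Ch25h-/- Tau- replicate 4. Histone genes such as Hist2h3c2 and Hist2h4 have near-identical copies, so their counts are uncertain. DESeq2 and limma-voom called 5 and 5 neighbours for tau in Ch25h+/+, against 2.39% and 2.81% of all genes. For Ch25h loss in Tau+ they called 6 and 7 (7.88% and 10.6% of all genes), and in Tau- 2 and 5 (5.45% and 7.83%). With tau in Ch25h-/- 0 neighbours passed in edgeR, DESeq2 or limma-voom, and 2 had an unadjusted edgeR p under 0.05 (median log2 fold change -0.017). The interaction also passed for 0 in these 3 tools, with 8 at an unadjusted edgeR p under 0.05 (median -0.0072). The distance of the transgene from Ctss was not tested.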

How the data were processed

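RNA-seq of 16 libraries was deposited by the authors as 1 table of raw counts per gene symbol, not normalized. Per the labels, total RNA was purified on columns and libraries were made with a SMARTer kit. The submitters' processing notes name STAR 2.7, GRCm38 and mm10. The counting program, annotation and use of strand are not given in the sources used here, so overlapping or antisense genes cannot be told apart. The table held 105 repeated symbols, none of them a member.

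After filterByExpr, 17736 genes were tested by the two-sided quasi-likelihood F test of edgeR 4.0.16 under R 4.3.3, with TMM scaling. A single model with 1 mean for each group covered the 16 libraries, and Benjamini-Hochberg adjustment ran over every gene tested (threshold 0.05). The standard error is the log2 fold change over the square root of F. CPM is on TMM-scaled library sizes. Alternatives were RLE size factors, keeping every gene with 1 count or more, keeping genes that average 50 counts or more, DESeq2 1.42.0, limma-voom 3.58.1 with quality weights, the rRNA class (CT010467.1 above 1000 CPM of total counts), the 8 libraries of a comparison alone, and each library left out. The edgeR, DESeq2 and limma-voom fits were also tested on simulated data. Marker sums and ratios were read as values with no test, and calls of single microglia markers are not reported here. Depth was 15530352 to 25602500 counts per library.

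Positions are from GENCODE M21 (GRCm38) by symbol. The members and lists were chosen with earlier results of these data known. Named genes were the 10 members, list genes past the threshold (at most the 6 with the smallest p), and Ctsk, Lgmn, Cst7, Grn and Cd74. Also named were the 3 non-member genes nearest in pattern to each called member, and Ctss neighbours past the threshold.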

Additional observations from a re-analysis of the deposited data

Results flagged for a closer look

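The tau effect on Ctss differed between the Ch25h genotypes by a test of the difference itself. The interaction was -1.19 on the log2 scale (edgeR quasi-likelihood test, adjusted p 0.0131), with all 4 Ch25h+/+ Tau+ libraries at 90.7 to 124 CPM and all 4 Ch25h-/- Tau+ libraries at 44.1 to 62.0 CPM. No library stood apart from the other 3 of its group by Dixon's test in any of the 40 groups of values (10 members in 4 groups of 4), where chance alone marks about 1 in 20. For Ctss in Ch25h-/- Tau+, replicate 2 was at 62.0 CPM and the other libraries at 44.1 to 47.3 CPM.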

How the results depend on the processing

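The number of members that passed stayed at 0 for tau in Ch25h-/- and for Ch25h loss in Tau- in all alternatives run. For tau in Ch25h+/+ it was 6 or 7 in the alternatives and 5 to 7 without 1 library. For Ch25h loss in Tau+ 6 members passed, against 1 with the rRNA class as a covariate, 3 from the 8 libraries alone and 4 to 6 without 1 library. For the interaction 1 passed, against 2 with no filter, 2 with DESeq2 and 0 to 1 without 1 library. No called member changed sign. Fitted values near 0 that did so were tau in Ch25h-/- for Cst3 (0.019, against -0.00200 with the rRNA class and -0.0091 with GC-corrected offsets), and Ch25h loss in Tau- for Ctss (0.14, against -0.097 with the rRNA class), Ctsh (0.019, against -0.052 with limma-voom and -0.16 with the rRNA class) and Ctsc (0.0088, against -0.70 with the rRNA class and -0.16 with GC-corrected offsets). Without 1 library, tau in Ch25h-/- was -0.032 to 0.15 for Ctss, -0.035 to 0.055 for Cst3 and -0.16 to 0.069 for Cstb, and Ch25h loss in Tau- was -0.20 to 0.13 for Ctsh, -0.14 to 0.14 for Ctsc and -0.066 to 0.17 for Cstb. Of the log2 ratios to microglia markers, that of Ctsb for Ch25h loss in Tau+ moved from 0.0503 to -0.045 with the geometric mean of the markers, and 2 others that overlapped between the groups also changed sign there, Ctsa for tau in Ch25h+/+ (-0.075 to 0.0200) and Cstb for Ch25h loss in Tau+ (0.0702 to -0.025). The cause of these changes was not tested. No paired analysis was possible because the replicate numbers were given by record order and the labels tie no library of one group to one of another. GC-corrected offsets, the choroid plexus covariate and the reading within rRNA-poor libraries were added after seeing the data.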

Other observations

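Levels were compared between the cathepsins per length, as CPM per kilobase of the principal transcript in GENCODE M21. Of the summed CPM per kilobase of the 8 cathepsins in Ch25h+/+ Tau-, Ctsb made up 38.1 ± 1.70% and Ctsd 29.0 ± 1.13% (SD, n = 4). They were followed by Ctss (9.88 ± 0.491%), Ctsa (8.93 ± 0.260%), Ctsz (8.35 ± 0.542%), Ctsl (3.36 ± 0.0958%), Ctsh (1.46 ± 0.243%) and Ctsc (0.932 ± 0.0814%). In Ch25h+/+ Tau+ Ctss made up 15.4 ± 0.611% and Ctsb 29.8 ± 1.83%, and neither overlapped its share in Ch25h+/+ Tau-. The Ctss share was 11.9 ± 1.73% in Ch25h-/- Tau- and 11.2 ± 0.991% in Ch25h-/- Tau+, and that of Ctsb 37.3 ± 2.17% and 36.7 ± 1.66%. These shares depend on which transcript is taken for the length. The Ctsl entry of 6168 bases is the longest of the 8.

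Ch25h-/- Tau+ replicate 2 was the highest library of its group for Ctss (62.0 CPM), Ctsd (229 CPM), Ctsb (626 CPM), Ctsz (39.5 CPM) and Cstb (13.1 CPM). For Ctsc replicate 3 of that group was the highest, at 12.4 CPM.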
